A study of Komagataella pastoris with 6 samples.

Results

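GS115 is a Komagataella phaffii (Pichia pastoris) strain with a defective his4 gene, so it cannot complete the synthesis of histidine and depends on histidine taken up from the medium. The question addressed here is what added histidine did to the transcripts of this auxotroph when acetate was the carbon source. The groups set against each other were GS115 grown for 24 h in YPA (yeast extract, peptone and acetate) with 650 µM histidine, named GS115-YPAH5x (2 libraries), and GS115 grown for 24 h in YPA with 0 µM added histidine, named GS115-YPA (2 libraries). They were taken by their strain and medium labels and make up 4 of the 6 libraries of the study. The other 2 libraries came from X33, a prototroph with a functional HIS4, grown for 24 h in YPA (X33-YPA), and they entered the same fit and a direct comparison given last. Of 5427 genes in the count table, 5426 could be tested.

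The groups shared the strain, the base medium and the sampling time, and the labels name the added histidine as the only difference. One label field calls GS115 wild type and another his4, and the second was followed, as in the study. Duplicates are not stated in the labels to be separate cultures, so the p-values below measure only the spread between these libraries, which may be technical. Culture density and growth stage at 24 h were not among the files, so histidine supply and growth cannot be told apart here. The RNA was that of whole cultures, and for every gene a lower share of expressing cells and less RNA per cell cannot be told apart either. HIS4 is defective but not deleted in GS115 and its transcript was counted in every library, so it does not check the labels.

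Histidine is built from phosphoribosyl pyrophosphate by a linear chain of enzymes, and His4 carries out several of its steps. In yeasts, lack of any single amino acid leaves uncharged tRNA, which activates the kinase Gcn2 together with Gcn1, increases translation of the transcription factor Gcn4, and raises transcription of biosynthetic genes for many amino acids at once. This response, general amino acid control, has been worked out mainly in Saccharomyces cerevisiae. Amino acids in the medium are brought in by permeases of the plasma membrane, whose genes respond to the nitrogen source and to external amino acids. Gene roles given below are those of the annotation or of the S. cerevisiae counterparts.

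Levels are given as CPM, read counts relative to library size, scaled between libraries by TMM. CPM are not corrected for gene length, so they are compared only between libraries of 1 gene. A gene was said to have risen or fallen in GS115-YPAH5x when its adjusted p was under 0.05 in edgeR's quasi-likelihood test of GS115-YPAH5x against GS115-YPA, and the stricter thresholds of the study also ask for a log2 fold change of 2 or more in either direction. Library totals lay between 32194047 and 43447246 counts, and duplicates differed by more than counting noise, most in GS115-YPA. Among genes with a mean of at least 10 CPM, the 2 libraries differed by over 2-fold for 3 of 4217 genes in GS115-YPAH5x and for 48 of 4341 genes in GS115-YPA.

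Added histidine went with a broad change of the transcriptome. In GS115-YPAH5x, 3246 genes (59.8% of those tested) passed the test, of which 1667 rose (30.7%) and 1579 fell (29.1%). At the stricter thresholds 289 passed (5.33%), with 142 that rose (2.62%) and 147 that fell (2.71%). The libraries of the groups did not overlap in CPM for 4392 genes (80.9%), with GS115-YPAH5x higher in 2230 (41.1%) and lower in 2162 (39.8%). All 1667 genes that rose and all 1579 that fell were among these, so lack of overlap sets no gene that passed apart from the others. Most changes were small: 1870 of the genes that passed had an absolute log2 fold change under 1, whereas 30 rose and 34 fell by 3 or more, and the range was -5.03 to 6.68. Under scaling by library totals alone the median of all genes moved to -0.20 and the split became 1228 higher and 2031 lower, so the counts under library totals are given below for each list whose median lay within 0.2 of 0, and for others where that scaling moved a count by over 1.5 times. Of the 160 genes annotated as miscellaneous RNA, 43 rose and 25 fell. Both shares lay below the 30.7% and 29.1% of all genes tested, the share that fell by more.

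**Figure D1:**
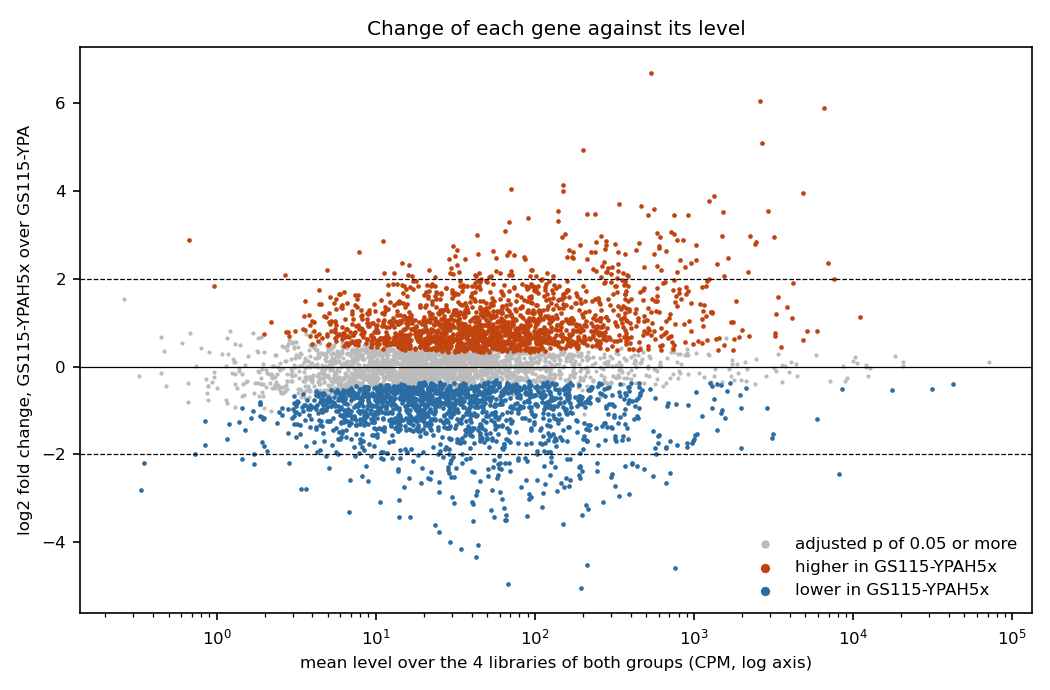
Each point is 1 of 5426 genes, with its mean CPM over the 4 libraries of GS115-YPAH5x and GS115-YPA on a log axis and its log2 fold change (GS115-YPAH5x over GS115-YPA) on the vertical axis; dashed lines mark the study's fold threshold of 2. Genes that rose (1667) and fell (1579) are seen at all levels, and few lie beyond the dashed lines.

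Most genes of histidine biosynthesis fell. Of 7 genes, 1 rose and 5 fell, while 1 stayed under the test's threshold (median log2 fold change -1.75, against 0.00 over all genes tested), and together they took 0.081% and 0.0856% of all counts in GS115-YPAH5x, against 0.248% and 0.276% in GS115-YPA. The gene for the first enzyme, ATP phosphoribosyltransferase (BQ9382_C1-5345), had 31 and 27.3 CPM in GS115-YPAH5x, against 132 and 121 CPM in GS115-YPA (log2 fold change -2.12, SE 0.14, adjusted p = 2.02e-06). The gene for HIS7, the glutamine amidotransferase and cyclase that forms the imidazole ring, had 45.6 and 41 CPM in GS115-YPAH5x, against 139 and 152 CPM in GS115-YPA (log2 fold change -1.75, SE 0.14, adjusted p = 5.98e-06). The groups were well separated in these genes, and both GS115-YPA libraries were high. The gene for imidazoleglycerol-phosphate dehydratase (BQ9382_C3-2175), which acts after the ring is made, had 394 and 498 CPM in GS115-YPAH5x, against 1376 and 1618 CPM in GS115-YPA (log2 fold change -1.75, SE 0.20, adjusted p = 5.39e-05). The aminotransferase gene (BQ9382_C2-3235) had the largest change of the pathway, with 30.3 and 29.1 CPM in GS115-YPAH5x, against 172 and 181 CPM in GS115-YPA (log2 fold change -2.57, SE 0.13, adjusted p = 8.98e-07). The transcript of the defective HIS4 itself had a log2 fold change of -1.15, beside -1.75 to -2.57 in the other 4 genes that fell. The remaining genes of the pathway went otherwise. The histidinol-phosphatase gene (BQ9382_C1-3685) had 140.0 and 137 CPM in GS115-YPAH5x, against 126 and 125 CPM in GS115-YPA and did not pass the test (log2 fold change 0.14, SE 0.17, adjusted p = 0.501). The gene for the isomerase of the fourth step (BQ9382_C4-3425) had 52 and 44.9 CPM in GS115-YPAH5x, against 39.4 and 35.7 CPM in GS115-YPA (log2 fold change 0.37, SE 0.14, adjusted p = 0.0387), and this small rise no longer passed under several alternatives, among them scaling by library totals and leaving out either GS115-YPAH5x library or GS115-YPA replicate 2.

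Transcripts tied to general amino acid control itself were looked up in 3 genes, chosen after their values were seen. GCN4 had 555 and 429 CPM in GS115-YPAH5x, against 697 and 592 CPM in GS115-YPA, and the difference did not pass the test (log2 fold change -0.39, SE 0.16, adjusted p = 0.0657). This call depended on the processing: GCN4 passed as lower in 5 of 13 alternatives, among them DESeq2 and scaling by library totals, with adjusted p between 0.0096 and 0.429. The gene described as a GCN1-type activator of the Gcn2 kinase (BQ9382_C4-3510) rose, with 133 and 119 CPM in GS115-YPAH5x, against 49.3 and 67.6 CPM in GS115-YPA (log2 fold change 1.11, SE 0.17, adjusted p = 0.000347). The histidyl-tRNA ligase gene (BQ9382_C1-1295), described as mitochondrial, whose product loads histidine onto its tRNA, had 59.3 and 55.7 CPM in GS115-YPAH5x, against 44.2 and 32.6 CPM in GS115-YPA (log2 fold change 0.58, SE 0.16, adjusted p = 0.0116), and its rise no longer passed under library totals (adjusted p = 0.0876) or without GS115-YPAH5x replicate 1 (adjusted p = 0.0667).

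Arginine and ornithine biosynthesis had the lowest median of the 39 gene lists described. Of 9 genes, 0 rose and 7 fell, while 2 stayed under the test's threshold (median -2.29), and 6 of the 7 passed the stricter thresholds. Their reads made up 0.0727% and 0.0727% of all counts in GS115-YPAH5x, against 0.324% and 0.412% in GS115-YPA. The ornithine carbamoyltransferase gene (BQ9382_C3-3090), whose product makes citrulline, had 10.2 and 11.1 CPM in GS115-YPAH5x, against 109 and 132 CPM in GS115-YPA (log2 fold change -3.50, SE 0.16, adjusted p = 5.96e-07). The argininosuccinate synthase gene (BQ9382_C3-5320), for the step after it, had 169 and 167 CPM in GS115-YPAH5x, against 788 and 1100.2 CPM in GS115-YPA (log2 fold change -2.49, SE 0.19, adjusted p = 4.79e-06). In each of these genes the GS115-YPA libraries were several times as high as those of GS115-YPAH5x. The log2 fold changes of the acetylornithine aminotransferase gene (BQ9382_C4-1695), CPA1 for the small subunit of carbamoyl-phosphate synthase, the argininosuccinate lyase gene (BQ9382_C1-3645) and ARG56 were -2.54, -2.48, -2.29 and -2.25. ARG2, for acetylglutamate synthase, and ORT1, for the mitochondrial ornithine carrier, did not pass the test. This depended on the scaling, since all 9 genes passed as lower under upper quartile scaling and under library totals.

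Lysine and branched-chain amino acid genes fell as well. Of 9 genes of lysine biosynthesis, 1 rose and 7 fell, while 1 stayed under the test's threshold (median -1.69). LYS4, for homoaconitase, had 25.5 and 20.3 CPM in GS115-YPAH5x, against 249 and 302 CPM in GS115-YPA (log2 fold change -3.59, SE 0.18, adjusted p = 8.26e-07), and LYS1, for the last step, had a log2 fold change of -2.65. Homocitrate synthase, the entry to the pathway, is described for 2 genes, and they moved in opposite directions: BQ9382_C1-6380 had 395 and 396 CPM in GS115-YPAH5x, against 1106 and 1726 CPM in GS115-YPA (log2 fold change -1.84, SE 0.20, adjusted p = 4.53e-05), whereas BQ9382_C1-3255 had 81.1 and 83.8 CPM in GS115-YPAH5x, against 55 and 54.8 CPM in GS115-YPA (log2 fold change 0.59, SE 0.13, adjusted p = 0.00357). Of 10 genes of leucine, isoleucine and valine biosynthesis, 0 rose and 8 fell, while 2 stayed under the test's threshold (median -1.51). LEU1, for isopropylmalate isomerase, had 57.4 and 74.5 CPM in GS115-YPAH5x, against 243 and 397 CPM in GS115-YPA (log2 fold change -2.28, SE 0.23, adjusted p = 2.76e-05), and the dihydroxyacid dehydratase gene (BQ9382_C1-6580) had a log2 fold change of -2.17. The 2 that did not pass were the ketol-acid reductoisomerase gene (BQ9382_C1-3900), at 0.25 (adjusted p = 0.124), and LEU3, for the regulator of the leucine genes, at 0.60 (adjusted p = 0.0625). The call of LEU3 depended on the processing, since it passed as higher with DESeq2 (log2 fold change 0.60, adjusted p = 0.0439). Its log2 fold change was 0.79 without GS115-YPAH5x replicate 1 and 1.04 without GS115-YPA replicate 2.

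Aromatic amino acid genes fell too. Of 14 genes, 0 rose and 11 fell, while 3 stayed under the test's threshold (median -0.80). The chorismate mutase gene (BQ9382_C4-5060), at the branch to phenylalanine and tyrosine, had 43.9 and 53.3 CPM in GS115-YPAH5x, against 198 and 207 CPM in GS115-YPA (log2 fold change -2.06, SE 0.15, adjusted p = 3.03e-06). A tryptophan synthase gene (BQ9382_C2-3265) had 98 and 83.1 CPM in GS115-YPAH5x, against 459.9 and 567 CPM in GS115-YPA (log2 fold change -2.50, SE 0.18, adjusted p = 3.23e-06), while a second gene annotated as a tryptophan synthase beta chain (BQ9382_C3-3030) did not pass the test (log2 fold change 0.26, adjusted p = 0.0921). No member of the list rose.

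**Figure D2:**
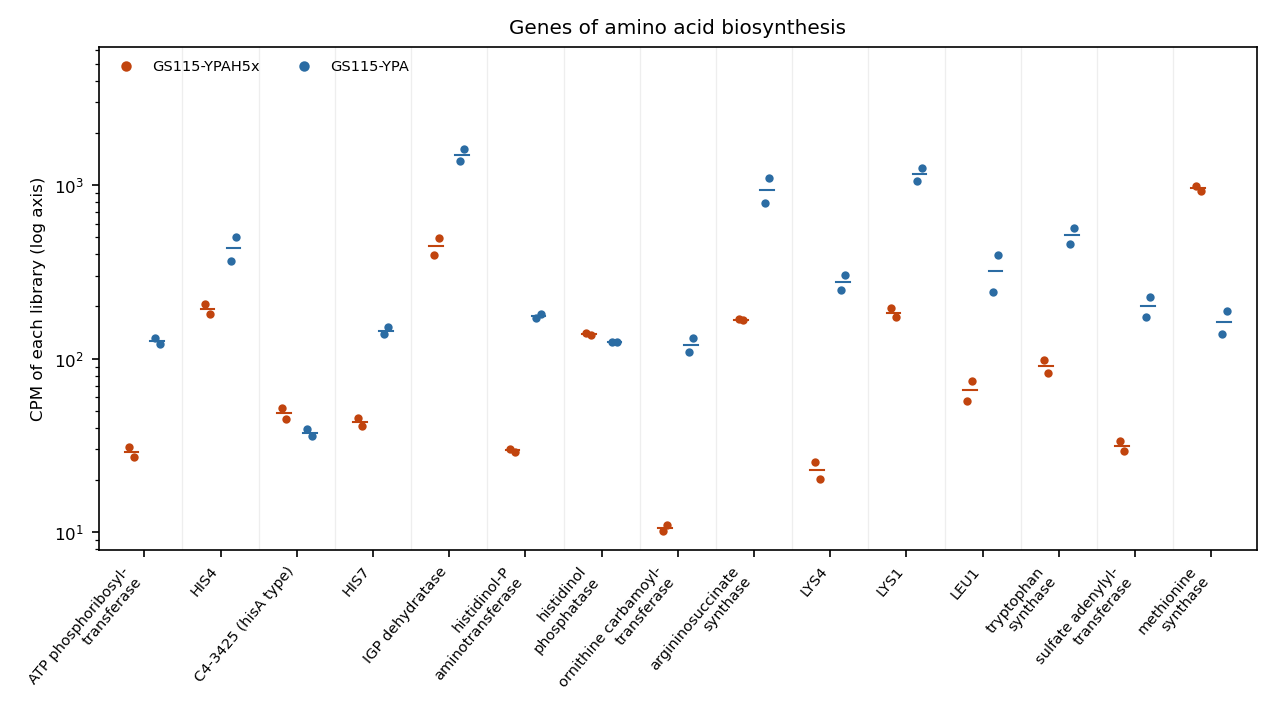
Levels in CPM (log axis) of 15 genes of amino acid biosynthesis in each library, GS115-YPAH5x left of GS115-YPA in every panel; points are single libraries. Most genes shown are lower in GS115-YPAH5x, as LYS4 with 25.5 and 20.3 CPM in GS115-YPAH5x, against 249 and 302 CPM in GS115-YPA, while the methionine synthase gene is higher.

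Sulfur and methionine genes changed in both directions. Of 22 genes, 6 rose and 9 fell, while 7 stayed under the test's threshold (median -0.25). The members described here were picked by size or after their values were seen, so they are examples and no count of a branch. The sulfate adenylyltransferase gene (BQ9382_C1-5435), for the first step, had 33.5 and 29.5 CPM in GS115-YPAH5x, against 174 and 227 CPM in GS115-YPA (log2 fold change -2.67, SE 0.18, adjusted p = 2.02e-06). A sulfite reductase gene (BQ9382_C3-0470) and MET17, for the enzyme that fixes sulfide, had log2 fold changes of -1.95 and -1.88. The cobalamin-independent methionine synthase gene (BQ9382_C2-6170) had 992 and 925 CPM in GS115-YPAH5x, against 138 and 189 CPM in GS115-YPA (log2 fold change 2.55, SE 0.18, adjusted p = 3.23e-06), so that its 2 GS115-YPAH5x libraries were above both GS115-YPA libraries. Genes for methylenetetrahydrofolate reductase (BQ9382_C2-0815), which supplies its methyl group, for a cystathionine beta-lyase (BQ9382_C2-5070) and for S-adenosylmethionine synthase (BQ9382_C3-1655) had log2 fold changes of 1.83, 1.5 and 1.27. Of 11 genes of purine biosynthesis, which shares an intermediate with the histidine pathway, 2 rose and 8 fell, while 1 stayed under the test's threshold (median -0.47), but the number that fell was 4 without GS115-YPAH5x replicate 1 and 3 without replicate 2. The one with the largest change encodes the SAICAR synthase of the pathway (BQ9382_C1-6535), with 84.4 and 71.8 CPM in GS115-YPAH5x, against 305 and 302 CPM in GS115-YPA (log2 fold change -1.96, SE 0.14, adjusted p = 3.89e-06).

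Aminoacyl-tRNA synthetases, which load amino acids onto tRNAs, fell more often than they rose. Of 35 genes, 7 rose and 14 fell, while 14 stayed under the test's threshold (median -0.21), with 2 and 17 under library totals and 3 or 4 rising when a GS115-YPAH5x library or GS115-YPA replicate 1 was left out. A lysyl-tRNA ligase gene (BQ9382_C3-1235) had 159.7 and 145 CPM in GS115-YPAH5x, against 634 and 822 CPM in GS115-YPA (log2 fold change -2.26, SE 0.17, adjusted p = 3.60e-06), and the isoleucyl-tRNA synthetase gene BQ9382_C4-1340 had a log2 fold change of -1.69. ARC1, for the cofactor of the methionyl- and glutamyl-tRNA synthetases, had 145 and 139 CPM in GS115-YPAH5x, against 245 and 295 CPM in GS115-YPA (log2 fold change -0.93, SE 0.15, adjusted p = 0.000505). Tyrosyl-tRNA ligase is described for 2 genes with opposite changes, BQ9382_C4-2375 with 41.2 and 38.6 CPM against 124 and 145 CPM (GS115-YPAH5x against GS115-YPA; log2 fold change -1.76, adjusted p = 6.06e-06) and BQ9382_C3-0325 with 147 and 151 CPM against 61.5 and 51.5 CPM (log2 fold change 1.40, adjusted p = 5.24e-05). The annotation does not give which of them serves the cytosol and which the mitochondrion.

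Amino acid permease genes rose more often than they fell. Of 29 genes, 14 rose and 7 fell, while 8 stayed under the test's threshold (median 0.31), and 7 passed the stricter thresholds, all of them higher. Together the 29 took 0.584% and 0.53% of all counts in GS115-YPAH5x, against 0.167% and 0.186% in GS115-YPA. The largest rise of all genes tested was that of BQ9382_C1-1685, described as a general amino acid permease, with 1094 and 1019.7 CPM in GS115-YPAH5x, against 8.91 and 11.6 CPM in GS115-YPA (log2 fold change 6.68, SE 0.20, adjusted p = 1.08e-07). Both GS115-YPAH5x libraries were far above both GS115-YPA libraries. Genes described as a methionine permease (BQ9382_C2-5105), a dicarboxylic amino acid permease (BQ9382_C4-3750), a proline permease (BQ9382_C2-3380) and a lysine or arginine permease (BQ9382_C1-3400) had log2 fold changes of 3.70, 3.47, 3.02 and 2.55. The gene BQ9382_C3-1840, described as an AGP2-type permease of polyamines, had 1791 and 1667 CPM in GS115-YPAH5x, against 249 and 393 CPM in GS115-YPA (log2 fold change 2.43, SE 0.21, adjusted p = 1.03e-05). Going the other way, a transporter of basic amino acids into the vacuole (BQ9382_C1-1105) had 22.2 and 31.6 CPM in GS115-YPAH5x, against 102 and 94.9 CPM in GS115-YPA (log2 fold change -1.87, SE 0.19, adjusted p = 2.42e-05), and the permease-like sensor of external amino acids of the SPS type (BQ9382_C4-5235) had a log2 fold change of -1.20. Close copies of permeases may share reads, since the handling of such reads was not given in the sources used here.

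Nitrogen-source genes changed in both directions. Of 34 genes, 10 rose and 17 fell, while 7 stayed under the test's threshold (median -0.40). The largest fall of all genes tested was that of a nitrilase gene (BQ9382_C2-6835), for an enzyme family that releases ammonia from nitriles or amides, with 13.9 and 9.06 CPM in GS115-YPAH5x, against 373 and 379 CPM in GS115-YPA (log2 fold change -5.03, SE 0.25, adjusted p = 8.07e-07). Some genes for urea and purine breakdown were among those that fell. DUR1, for urea amidolyase, had 97 and 92.5 CPM in GS115-YPAH5x, against 397 and 641 CPM in GS115-YPA (log2 fold change -2.45, SE 0.21, adjusted p = 1.03e-05). The uricase (BQ9382_C2-1595), urea transporter (BQ9382_C4-2835) and allantoinase (BQ9382_C1-0085) genes had log2 fold changes of -2.26, -2.21 and -2.04. Some genes that turn arginine and proline into glutamate were among those that rose, several of them chosen after their values were seen. The arginase gene (BQ9382_C4-1485) had 1009.9 and 1062 CPM in GS115-YPAH5x, against 322 and 228 CPM in GS115-YPA (log2 fold change 1.91, SE 0.18, adjusted p = 1.63e-05). The proline dehydrogenase gene (BQ9382_C1-1425), the pyrroline-5-carboxylate dehydrogenase gene (BQ9382_C2-2330), their regulator gene PUT3 and GDH2, for the glutamate dehydrogenase that releases ammonia, had log2 fold changes of 1.82, 2.06, 1.03 and 1.84. Glutamine synthetase (BQ9382_C4-0910), which fixes ammonia, had 14912 and 15182 CPM in GS115-YPAH5x, against 5944 and 7796 CPM in GS115-YPA (log2 fold change 1.13, SE 0.16, adjusted p = 0.000244).

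The core of acetate metabolism changed by member. Of 24 genes of the tricarboxylic acid cycle and pyruvate dehydrogenase, 9 rose and 6 fell, while 9 stayed under the test's threshold (median 0.19), which became 8 and 8 under scaling by library totals and 3 fallen without GS115-YPAH5x replicate 1. The citrate synthase gene (BQ9382_C1-2225), which brings acetyl-CoA into the cycle, had 4836 and 4304 CPM in GS115-YPAH5x, against 1795 and 2191 CPM in GS115-YPA (log2 fold change 1.20, SE 0.16, adjusted p = 0.000129). Isocitrate dehydrogenase was divided by cofactor. Both genes of the NAD enzyme of the cycle (BQ9382_C2-6375 and BQ9382_C4-2035) rose, with log2 fold changes of 1.36 (adjusted p = 7.00e-05) and 1.45 (adjusted p = 3.67e-05). Both genes of the NADP enzyme (BQ9382_C1-2820 and BQ9382_C2-3830) fell, with -1.70 (adjusted p = 6.09e-06) and -0.84 (adjusted p = 0.00133). Of 22 genes that handle acetate and the glyoxylate cycle or run gluconeogenesis, 12 rose and 4 fell, while 6 stayed under the test's threshold (median 0.56), with 1 fallen gene without GS115-YPAH5x replicate 2 or GS115-YPA replicate 2. Among genes described as acetate transporters or as exporters of ammonia, BQ9382_C1-2420 had 1638 and 1522 CPM in GS115-YPAH5x, against 689 and 494 CPM in GS115-YPA (log2 fold change 1.42, SE 0.18, adjusted p = 9.63e-05). The mitochondrial succinate/fumarate carrier gene (BQ9382_C4-1470), which links the glyoxylate cycle to the mitochondrion, had a log2 fold change of 1.41 (adjusted p = 1.97e-05), and the carnitine carrier gene (BQ9382_C2-2065) had -0.92 (adjusted p = 0.0006).

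Respiratory genes differed by complex. Of 34 genes of complex I, the proton-pumping NADH dehydrogenase that S. cerevisiae lacks, 23 rose and 3 fell, while 8 stayed under the test's threshold (median 0.62), with 15 rising without GS115-YPAH5x replicate 2, 18 rising under library totals, and 0 or 1 falling without a GS115-YPAH5x library. The subunit gene BQ9382_C1-2240 had 81.3 and 76.6 CPM in GS115-YPAH5x, against 18.3 and 23.1 CPM in GS115-YPA (log2 fold change 1.93, SE 0.16, adjusted p = 7.11e-06). Of 41 genes of complexes III and IV with cytochrome c, 15 rose and 10 fell, while 16 stayed under the test's threshold, and the median lay below 0 (log2 fold change -0.19) although more members rose than fell, an order that turned under library totals (12 higher, 13 lower). COX18, for a factor that inserts a cytochrome oxidase subunit into the membrane, had 4.25 and 4.85 CPM in GS115-YPAH5x, against 21.5 and 24.4 CPM in GS115-YPA (log2 fold change -2.34, SE 0.18, adjusted p = 4.25e-06). Of 19 ATP synthase genes, 15 rose and 4 fell, while 0 stayed under the test's threshold (median 1.71), and the 4 that fell are described as assembly factors (ATP11, ATP12, BQ9382_C4-0790 and BQ9382_C2-3105). The fall of BQ9382_C2-3105 was lost without GS115-YPAH5x replicate 2 or GS115-YPA replicate 1. Mitochondrial ribosomal protein genes, 72 in number, were mixed, as 13 rose and 23 fell, while 36 stayed under the test's threshold (median -0.17), with 8 higher and 33 lower under library totals, and 7 or 8 rising and 11 to 14 falling when a GS115-YPAH5x library was left out. Of 56 mitochondrial carrier and import genes, 11 rose and 17 fell, while 28 stayed under the test's threshold (median -0.18), with 6 higher and 24 lower under library totals, 6 rising without GS115-YPAH5x replicate 2 and 11 falling without replicate 1. The shares that fell, 31.9% of mitochondrial ribosomal protein genes and 30.4% of carrier and import genes, were near the 29.1% of all genes. The shares that rose were 18.1% and 19.6%, beside 30.7% of all genes. Among the carrier and import genes was MIA40, for the import receptor of the intermembrane space. It had 178 and 194 CPM in GS115-YPAH5x, against 635 and 527 CPM in GS115-YPA (log2 fold change -1.64, SE 0.15, adjusted p = 1.49e-05).

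Histone and replication genes mostly rose. Of 8 histone genes, 6 rose and 0 fell, while 2 stayed under the test's threshold (median 2.04), and 4 passed the stricter thresholds. An H4 gene (BQ9382_C2-1155) had 154 and 113 CPM in GS115-YPAH5x, against 8.57 and 7.61 CPM in GS115-YPA (log2 fold change 4.04, SE 0.19, adjusted p = 7.54e-07), and the H3 gene next to it (BQ9382_C2-1150) had 305 and 262 CPM in GS115-YPAH5x, against 19.3 and 16 CPM in GS115-YPA (log2 fold change 4.0, SE 0.18, adjusted p = 5.96e-07). In both genes each GS115-YPAH5x library was well above each GS115-YPA library. The second H3 and H4 genes (BQ9382_C1-8120 and BQ9382_C1-8125) did not pass the test (log2 fold changes 0.41 and 0.15, adjusted p = 0.073 and 0.48). The H3 gene had 990 and 1057 CPM in GS115-YPAH5x, against 901 and 645 CPM in GS115-YPA. The H4 gene had 391 and 392 CPM, against 413 and 294 CPM. Without GS115-YPA replicate 1 their log2 fold changes were 0.62 and 0.37. The call of the H3 gene BQ9382_C1-8120 depended on the processing, since it passed as higher with DESeq2 (log2 fold change 0.41, adjusted p = 0.0413). Together the 8 histone genes took 0.250% and 0.241% of all counts in GS115-YPAH5x, against 0.171% and 0.121% in GS115-YPA. Of 45 genes for copying DNA and making its nucleotides, 26 rose and 5 fell, while 14 stayed under the test's threshold (median 0.71), with 8 falling under library totals and 2 or 3 without a GS115-YPAH5x library. A gene for the large subunit of ribonucleotide reductase (BQ9382_C1-3085), which makes deoxyribonucleotides, had 306 and 262 CPM in GS115-YPAH5x, against 15.3 and 16.9 CPM in GS115-YPA (log2 fold change 4.14, SE 0.16, adjusted p = 2.47e-07). A second gene for that subunit (BQ9382_C2-5895) fell, with 20.9 and 20.6 CPM in GS115-YPAH5x, against 51.5 and 43.3 CPM in GS115-YPA (log2 fold change -1.19, SE 0.17, adjusted p = 0.000196). TOP2, for topoisomerase II, had 79.7 and 70.2 CPM in GS115-YPAH5x, against 13.5 and 11.8 CPM in GS115-YPA (log2 fold change 2.57, SE 0.14, adjusted p = 1.16e-06), and the flap endonuclease (BQ9382_C1-7550) and ORC6-type origin recognition (BQ9382_C3-1375) genes had log2 fold changes of 2.20 and 2.08.

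Of 89 cell cycle and spindle genes, 30 rose and 15 fell, while 44 stayed under the test's threshold (median 0.16). The share that fell was 16.9%, beside 29.1% of all genes. The share that rose, 33.7%, was close to the 30.7% of all genes, and the counts were 25 higher and 22 lower under library totals, while 9 fell without either GS115-YPAH5x library. The beta-tubulin gene (BQ9382_C4-2295), for the subunit of spindle microtubules, had 304 and 288 CPM in GS115-YPAH5x, against 52.4 and 45 CPM in GS115-YPA (log2 fold change 2.60, SE 0.15, adjusted p = 1.17e-06). A kinesin motor gene (BQ9382_C1-2020), a myosin gene (BQ9382_C3-1985) and CDH1, for an activator of the anaphase-promoting complex, had log2 fold changes of 2.48, 2.07 and 1.95. Of 37 genes of meiosis and sporulation, 13 rose and 14 fell, while 10 stayed under the test's threshold (median -0.14), with 11 higher and 17 lower under library totals, and 5 or 8 falling without GS115-YPAH5x replicate 1 or 2. RME1, a repressor of entry into meiosis in S. cerevisiae, had 2374 and 2311 CPM in GS115-YPAH5x, against 408 and 523 CPM in GS115-YPA (log2 fold change 2.33, SE 0.22, adjusted p = 1.71e-05). IME2, for a kinase that drives meiosis, had 28.1 and 24.1 CPM in GS115-YPAH5x, against 58.6 and 83 CPM in GS115-YPA (log2 fold change -1.44, SE 0.18, adjusted p = 0.000112), and the sporulation kinase genes SPS1 and SMK1 had log2 fold changes of -2.22 and -1.61. These members are examples from a list of which 35.1% rose and 37.8% fell, beside 30.7% and 29.1% of all genes. Against X33-YPA, given below, RME1 and IME2 were both higher in GS115-YPAH5x.

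Genes of the translation machinery were mixed outside the ribosomal proteins. Of 78 cytosolic ribosomal protein genes, 52 rose and 4 fell, while 22 stayed under the test's threshold (median 0.53). The number that rose was 30 or 33 without GS115-YPAH5x replicate 1 or 2 and 34 under library totals, where 9 fell, and 2 or 1 fell without these libraries. Of 129 genes of ribosome biogenesis and rRNA processing, 21 rose and 38 fell, while 70 stayed under the test's threshold (median -0.13), with 10 higher and 57 lower under library totals, and 12 or 13 rising and 23 to 25 falling without a GS115-YPAH5x library. Of 43 translation factor genes, 13 rose and 11 fell, while 19 stayed under the test's threshold (median -0.02), an order that turned under library totals (5 higher, 15 lower), with 4 to 8 rising and 6 falling when a GS115-YPAH5x library, or for the rise GS115-YPA replicate 1, was left out. The shares of translation factor genes that rose and fell, 30.2% and 25.6%, were near the 30.7% and 29.1% of all genes. For ribosome biogenesis and rRNA processing genes they were 16.3% and 29.5%, so only the share that fell was near that of all genes. EIF3B, for a subunit of the initiation factor that recruits mRNA, had 219.8 and 219.9 CPM in GS115-YPAH5x, against 74.1 and 76.7 CPM in GS115-YPA (log2 fold change 1.54, SE 0.13, adjusted p = 9.00e-06). The gene for the alpha subunit of eIF2 (BQ9382_C3-6125), the subunit that Gcn2 phosphorylates, had 110.2 and 116 CPM in GS115-YPAH5x, against 289 and 321 CPM in GS115-YPA (log2 fold change -1.43, SE 0.14, adjusted p = 1.89e-05). Of 31 genes for subunits of RNA polymerases I, II and III, 9 rose and 13 fell, while 9 stayed under the test's threshold (median -0.01), with 4 higher and 13 lower under library totals, 4 or 5 rising without a GS115-YPAH5x library and 8 falling without replicate 2. The eIF2B subunit gene BQ9382_C3-3410 had a large spread, with 23.5 and 22.2 CPM in GS115-YPAH5x, against 199 and 36.5 CPM in GS115-YPA (log2 fold change -2.36, SE 0.57, adjusted p = 0.00572), so that only GS115-YPA replicate 1 was high, and the call was lost with edgeR's robust option.

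Proteasome genes fell almost throughout. Of 39 genes, 1 rose and 33 fell, while 5 stayed under the test's threshold (median -0.73), and the single rise was lost under 9 of 13 alternatives, among them leaving out either GS115-YPAH5x library or GS115-YPA replicate 1. Of 35 genes of autophagy and vacuolar proteases, 10 rose and 10 fell, while 15 stayed under the test's threshold (median 0.07), with 8 higher and 14 lower under library totals, and 5 or 6 falling without a GS115-YPAH5x library. The shares that rose and fell, 28.6% each, were near the 30.7% and 29.1% of all genes. The highest log2 fold change of the list was that of a subtilisin-like protease gene (BQ9382_C2-6105). A field of the annotation names it an extracellular protease, so it may not belong to the vacuole. It had 5509 and 4815 CPM in GS115-YPAH5x, against 109 and 195 CPM in GS115-YPA (log2 fold change 5.08, SE 0.29, adjusted p = 1.16e-06). The genes for carboxypeptidase S (BQ9382_C4-1480) and for LAP4, an aminopeptidase of the vacuole, had log2 fold changes of 2.15 and 2.02. ATG8, for the ubiquitin-like protein of the autophagosome membrane, went the other way, with 83 and 84.9 CPM in GS115-YPAH5x, against 227 and 160.2 CPM in GS115-YPA (log2 fold change -1.21, SE 0.17, adjusted p = 0.000237).

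Heat shock proteins and chaperones took 24.1% and 25.1% of all counts in GS115-YPAH5x, against 32.1% and 31.2% in GS115-YPA. Of 58 genes, 8 rose and 25 fell, while 25 stayed under the test's threshold (median -0.30), and the number that fell was 14 or 15 without GS115-YPAH5x replicate 1 or 2, while 5 rose without replicate 1. A ClpB-type disaggregase gene (BQ9382_C1-0540) had 35328 and 37463 CPM in GS115-YPAH5x, against 49334 and 46905 CPM in GS115-YPA (log2 fold change -0.40, SE 0.14, adjusted p = 0.0282), and this call was lost without either GS115-YPAH5x library. FES1, for the nucleotide exchange factor of cytosolic Hsp70, had 3427 and 3750.1 CPM in GS115-YPAH5x, against 8520.1 and 7939.6 CPM in GS115-YPA (log2 fold change -1.20, SE 0.15, adjusted p = 9.62e-05). The gene for an exchange factor of the GrpE family (BQ9382_C1-5540), known for work with mitochondrial Hsp70, had a log2 fold change of -1.59 (adjusted p = 7.61e-06).

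Redox defence genes fell more often than they rose. Of 47 genes, 9 rose and 23 fell, while 15 stayed under the test's threshold (median -0.51). A thiol peroxidase gene (BQ9382_C1-5000), for an enzyme that reduces peroxides, had 35 and 32 CPM in GS115-YPAH5x, against 269 and 211 CPM in GS115-YPA (log2 fold change -2.84, SE 0.16, adjusted p = 1.17e-06). SOD1, for the copper-zinc superoxide dismutase, had 859 and 865 CPM in GS115-YPAH5x, against 2985 and 3213 CPM in GS115-YPA (log2 fold change -1.85, SE 0.19, adjusted p = 2.88e-05), and the gene for its copper chaperone (BQ9382_C1-3035) had a log2 fold change of -1.53 (adjusted p = 6.84e-06). Against the list, SKN7, for a response regulator of oxidative and osmotic stress, had 229 and 292 CPM in GS115-YPAH5x, against 29.3 and 38.5 CPM in GS115-YPA (log2 fold change 2.94, SE 0.19, adjusted p = 1.78e-06). Methionine sulfoxide reductase of the msrA type repairs oxidised methionine and is described for 2 genes, of which BQ9382_C4-5320 rose (2.20 on the log2 scale) and BQ9382_C3-6195 fell (-1.15).

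Most fatty acid and sterol genes rose. Of 14 genes of fatty acid synthesis and desaturation, 9 rose and 0 fell, while 5 stayed under the test's threshold (median 0.64), and 1 fell under library totals or without GS115-YPA replicate 2. FAS2, for the alpha subunit of fatty acid synthase, had 349.6 and 369 CPM in GS115-YPAH5x, against 62.6 and 68.4 CPM in GS115-YPA (log2 fold change 2.46, SE 0.14, adjusted p = 1.17e-06). FAS1, for the beta subunit, the acetyl-CoA carboxylase gene (BQ9382_C1-5420), which supplies malonyl-CoA, and a Δ12 desaturase gene (BQ9382_C4-5050) had log2 fold changes of 1.61, 1.55 and 1.29. Of 22 sterol genes, 16 rose and 1 fell, while 5 stayed under the test's threshold (median 1.04), and 0 to 3 fell over the alternatives. Of 44 genes of peroxisome biogenesis and beta-oxidation, 14 rose and 9 fell, while 21 stayed under the test's threshold (median -0.10, of the opposite sign to the larger count). The shares that rose and fell were 31.8% and 20.5%, beside 30.7% and 29.1% of all genes. Library totals turned the order to 8 higher and 14 lower, and fewer rose without GS115-YPAH5x replicate 1.

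Methanol-use genes, which this yeast induces on methanol, were also counted on acetate. Of 7 genes, 4 rose and 0 fell, while 3 stayed under the test's threshold (median 0.44), or 3 and 1 under library totals. AOX1, for the main alcohol oxidase, had 50.9 and 43.9 CPM in GS115-YPAH5x, against 10.7 and 10.9 CPM in GS115-YPA (log2 fold change 2.13, SE 0.15, adjusted p = 3.23e-06). AOX2, for the minor oxidase, and the formate dehydrogenase gene (BQ9382_C3-1335) had log2 fold changes of 0.88 and 1.12. AOX1 and AOX2 are close copies, so reads of one may have been counted for the other.

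Iron and copper genes mostly rose. Of 24 genes, 15 rose and 3 fell, while 6 stayed under the test's threshold (median 0.92), with 6 rising at the stricter thresholds, and together the 24 genes took 0.631% and 0.573% of all counts in GS115-YPAH5x, against 0.193% and 0.21% in GS115-YPA. The multicopper ferroxidase gene (BQ9382_C2-2635), whose product oxidises ferrous iron for uptake, had 406 and 369.7 CPM in GS115-YPAH5x, against 31.9 and 38.3 CPM in GS115-YPA (log2 fold change 3.46, SE 0.17, adjusted p = 8.07e-07). A ferrous iron transporter gene (BQ9382_C2-0030) had 1834 and 1547 CPM in GS115-YPAH5x, against 143 and 166 CPM in GS115-YPA (log2 fold change 3.45, SE 0.17, adjusted p = 8.60e-07). The groups were far apart in both genes, with no overlap. The genes described as ferrioxamine (siderophore) transporters, BQ9382_C3-4765, BQ9382_C3-2875 and BQ9382_C2-6955, had log2 fold changes of 2.79, 2.26 and 2.13. The copper transporter gene (BQ9382_C4-4355) had 1134 and 965 CPM in GS115-YPAH5x, against 160.3 and 155 CPM in GS115-YPA (log2 fold change 2.73, SE 0.15, adjusted p = 1.16e-06), whereas ATX1, for the copper chaperone of the secretory pathway, had a log2 fold change of -1.07 (adjusted p = 0.000923).

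Of 41 genes for vitamins and cofactors, 7 rose and 14 fell, while 20 stayed under the test's threshold (median -0.17). The share that rose was 17.1%, beside 30.7% of all genes. The share that fell, 34.1%, was near the 29.1% of all genes, with 3 higher and 20 lower under library totals, 3 rising without either GS115-YPAH5x library, and 5 fell at the stricter thresholds. The nicotinate phosphoribosyltransferase gene (BQ9382_C2-5825), of NAD salvage, had 87.2 and 80.6 CPM in GS115-YPAH5x, against 504 and 605 CPM in GS115-YPA (log2 fold change -2.72, SE 0.16, adjusted p = 1.55e-06). The SNZ-type gene of vitamin B6 synthesis (BQ9382_C1-6210), which is known in S. cerevisiae for its rise in stationary phase, had 155 and 168 CPM in GS115-YPAH5x, against 727 and 884 CPM in GS115-YPA (log2 fold change -2.32, SE 0.16, adjusted p = 2.30e-06). THI1, for thiamine thiazole synthase, and the pantothenate synthase gene (BQ9382_C1-5130) had log2 fold changes of -2.28 and -2.26. In the coenzyme A branch the phosphopantothenoylcysteine synthetase gene (BQ9382_C2-1185) went the other way, at 1.15 (adjusted p = 7.59e-05).

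Cell wall genes mostly rose. Of 54 genes of glucan, chitin and mannoproteins, 33 rose and 8 fell, while 13 stayed under the test's threshold (median 0.82), with 11 rising at the stricter thresholds, and 3 fell without either GS115-YPAH5x library. The list took 2.17% and 2.18% of all counts in GS115-YPAH5x, against 1.18% and 1.27% in GS115-YPA. A Tip1-type mannoprotein gene (BQ9382_C3-2685) had 2443 and 2522 CPM in GS115-YPAH5x, against 135 and 203 CPM in GS115-YPA (log2 fold change 3.88, SE 0.21, adjusted p = 1.08e-06). The GAS1-type gene BQ9382_C1-1200, for a glucanosyltransferase that elongates wall glucan, had 1435 and 1129 CPM in GS115-YPAH5x, against 126 and 179.9 CPM in GS115-YPA (log2 fold change 3.06, SE 0.21, adjusted p = 2.34e-06), while its neighbour BQ9382_C1-1195 of the same description did not pass the test (log2 fold change 0.28, adjusted p = 0.2; adjusted p = 0.0311 without GS115-YPA replicate 2). Chitin synthase genes differed: BQ9382_C2-0530, described as chitin synthase II, which forms the septum in S. cerevisiae, had 54.2 and 45.3 CPM in GS115-YPAH5x, against 14 and 9.33 CPM in GS115-YPA (log2 fold change 2.10, SE 0.20, adjusted p = 1.60e-05), and BQ9382_C2-6685, described as chitin synthase III, had a log2 fold change of -0.38 (adjusted p = 0.0261), a fall that was lost without either GS115-YPAH5x library. The gene BQ9382_C3-5910, for a regulator of beta-1,6-glucan in the endoplasmic reticulum, had the largest fall of the list at -2.07 (adjusted p = 2.78e-06). Of 57 protein glycosylation genes, 24 rose and 11 fell, while 22 stayed under the test's threshold (median 0.30), or 15 and 14 under library totals, with 7 falling without GS115-YPAH5x replicate 2. ALG3, for a mannosyltransferase of the lipid-linked glycan, had 14 and 11.8 CPM in GS115-YPAH5x, against 63.4 and 71.2 CPM in GS115-YPA (log2 fold change -2.38, SE 0.15, adjusted p = 1.74e-06).

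Adhesin and flocculin genes fell with 1 exception. Of 7 genes, 1 rose and 6 fell, while 0 stayed under the test's threshold (median -1.29). BQ9382_C3-6505 had 51.6 and 43.5 CPM in GS115-YPAH5x, against 269 and 298 CPM in GS115-YPA (log2 fold change -2.58, SE 0.16, adjusted p = 1.55e-06), and BQ9382_C1-7265 had 3.50 and 3.62 CPM in GS115-YPAH5x, against 35 and 51.7 CPM in GS115-YPA (log2 fold change -3.60, SE 0.22, adjusted p = 1.51e-06). FLO11, for the adhesin of invasive growth in S. cerevisiae, had a log2 fold change of -0.94 (adjusted p = 0.000699). The exception, BQ9382_C3-6445, had 1020.3 and 1039 CPM in GS115-YPAH5x, against 68.5 and 104 CPM in GS115-YPA (log2 fold change 3.58, SE 0.22, adjusted p = 1.55e-06). Adhesin genes hold repeats, and reads shared between them may have been assigned to more than one or to none. Of 14 sugar and glycerol transporter genes, 3 rose and 5 fell, while 6 stayed under the test's threshold (median -0.39), or 2 and 8 under library totals, and a glucose transporter gene (BQ9382_C1-7185) had 2082 and 1730.3 CPM in GS115-YPAH5x, against 367 and 620.3 CPM in GS115-YPA (log2 fold change 1.95, SE 0.24, adjusted p = 9.03e-05).

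**Figure D3:**
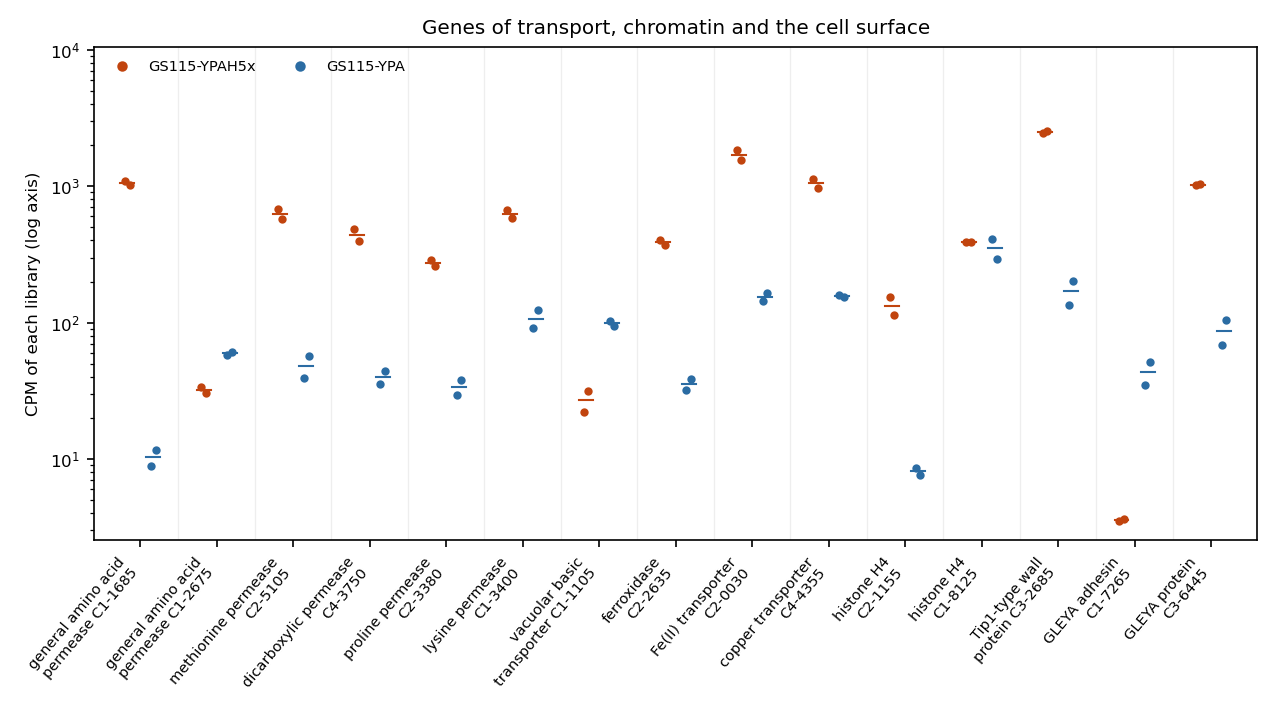
Levels in CPM (log axis) of 15 permease, metal, histone, wall and adhesin genes in each library, GS115-YPAH5x left of GS115-YPA in every panel; points are single libraries. The permease BQ9382_C1-1685 has 1094 and 1019.7 CPM in GS115-YPAH5x, against 8.91 and 11.6 CPM in GS115-YPA, and the adhesin BQ9382_C1-7265 is among the genes shown that are lower in GS115-YPAH5x.

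Some of the largest changes lay in genes left without a function in the UniRef field of the annotation. Such genes made up 493 of the 1667 genes that rose and 497 of the 1579 that fell (29.6% and 31.5%, beside 31.6% of all genes tested). Other fields describe some of them, such as FLO11 and the Tip1-type gene BQ9382_C3-2685 named above. BQ9382_C1-0020 had 5453 and 4812 CPM in GS115-YPAH5x, against 82.2 and 72.8 CPM in GS115-YPA (log2 fold change 6.05, SE 0.21, adjusted p = 1.58e-07). BQ9382_C1-8235 had 12980.4 and 12719 CPM in GS115-YPAH5x, against 199 and 237 CPM in GS115-YPA (log2 fold change 5.88, SE 0.18, adjusted p = 1.08e-07), and its annotation is contradictory, since it is described as a polymerase subunit in one field and as uncharacterised in another. Among the largest falls, BQ9382_C4-4560, annotated as an L-cysteine desulfhydrase, had 64.3 and 57.2 CPM in GS115-YPAH5x, against 1453 and 1447 CPM in GS115-YPA (log2 fold change -4.58, SE 0.16, adjusted p = 1.58e-07), and BQ9382_C3-4655 had a log2 fold change of -4.95 (adjusted p = 4.65e-07). In absolute level, an alcohol dehydrogenase gene of the ADH2 type (BQ9382_C2-4425), for the oxidation or formation of ethanol, rose with 10914 and 12272 CPM in GS115-YPAH5x, against 2255 and 2293 CPM in GS115-YPA (log2 fold change 2.35, SE 0.15, adjusted p = 1.89e-06), and a pirin-like gene (BQ9382_C1-4815) fell with 2172 and 2902 CPM in GS115-YPAH5x, against 14639.5 and 12767 CPM in GS115-YPA (log2 fold change -2.43, SE 0.24, adjusted p = 2.38e-05).

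**Figure D4:**
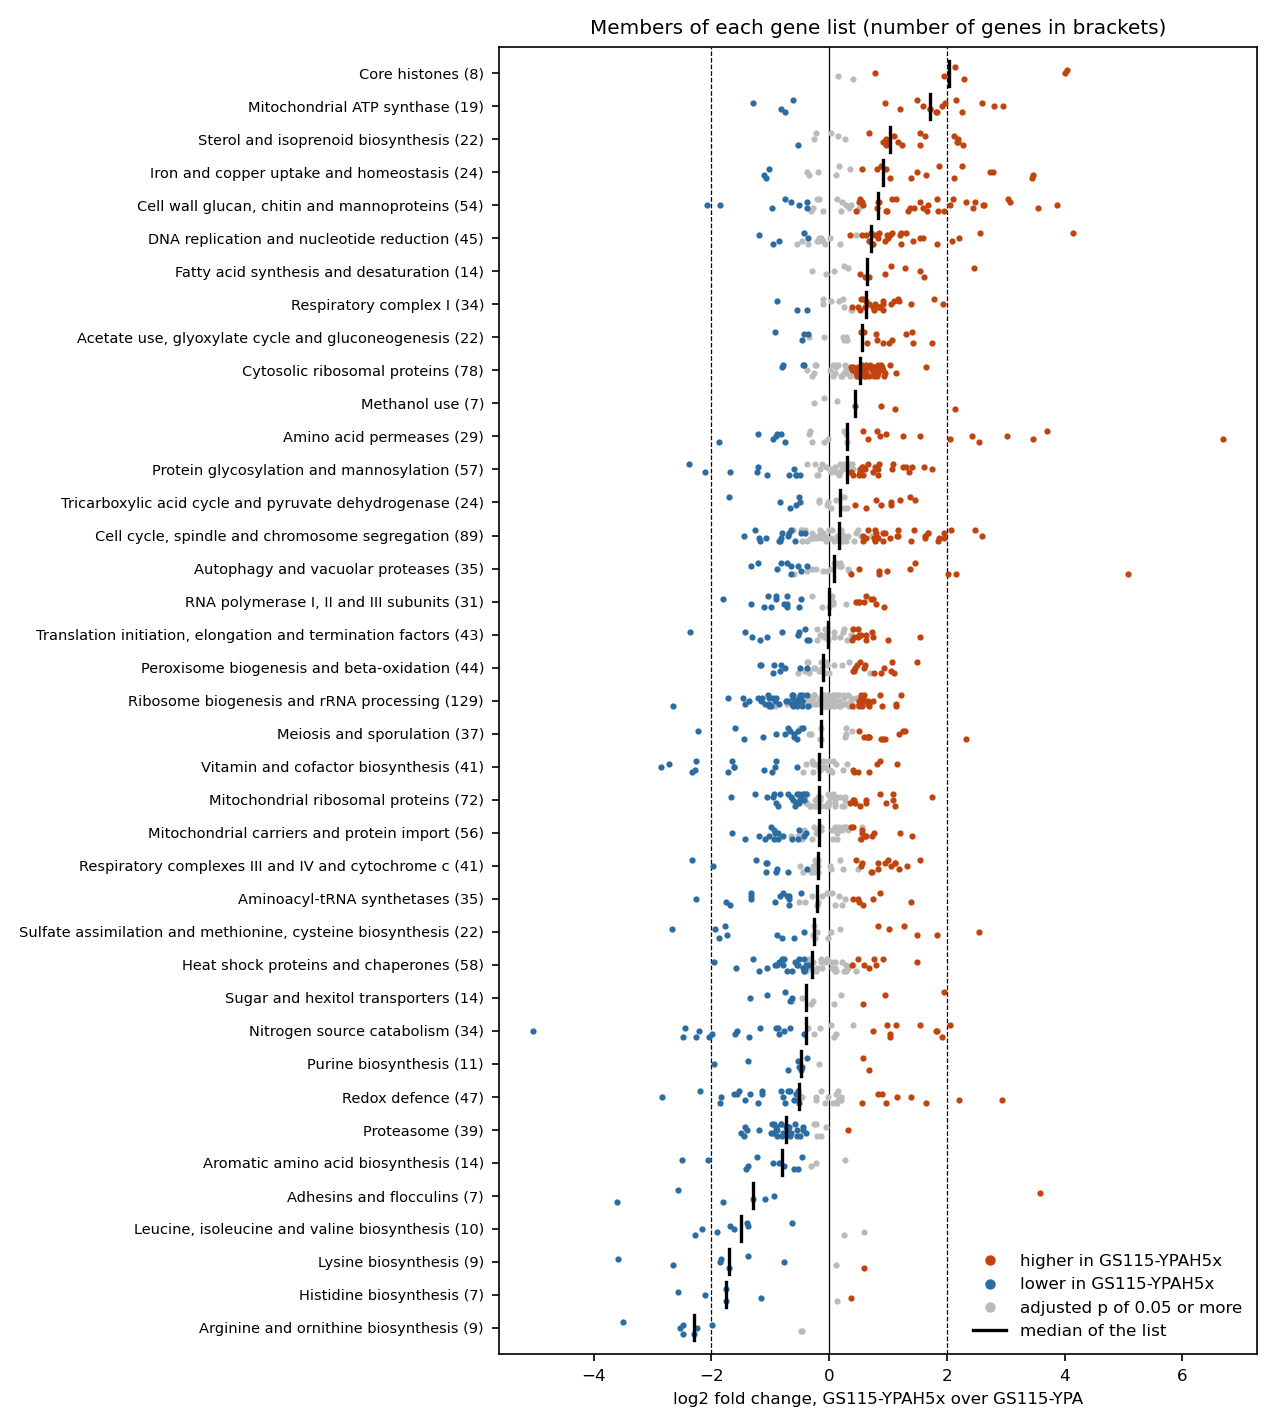
Log2 fold change (GS115-YPAH5x over GS115-YPA) of every member of 39 gene lists; each point is a gene, coloured when it passed the adjusted p of 0.05, and the tick marks the list's median. Arginine, lysine and histidine biosynthesis lie lowest (medians -2.29, -1.69 and -1.75), and histones and ATP synthase highest (2.04 and 1.71).

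GS115-YPAH5x was also set against X33-YPA, the prototroph without added histidine, to see where the fed auxotroph differed from a strain that makes histidine. Strain and histidine supply both differ in this contrast and cannot be told apart, and it shares the GS115-YPAH5x libraries with the main one, so values are given side by side only. Against X33-YPA 2247 genes passed the test (41.4%), with 1172 higher (21.6%) and 1075 lower (19.8%) in GS115-YPAH5x. This count was 1332 without GS115-YPAH5x replicate 1, 934 without GS115-YPAH5x replicate 2 and 1149 without X33-YPA replicate 2, and library totals gave 671 higher and 2040 lower. The permease BQ9382_C1-1685 had 1094 and 1019.7 CPM in GS115-YPAH5x, against 1150.2 and 1113 CPM in X33-YPA (log2 fold change over X33-YPA -0.10, SE 0.16, adjusted p = 0.635). Medians of the histidine and arginine lists against X33-YPA were 0.23 and 0.15, beside -1.75 and -2.29 against GS115-YPA. Under library totals the medians against X33-YPA turned to -0.04 and -0.12. Of 78 cytosolic ribosomal protein genes 67 were lower than in X33-YPA, but 44 and 30 without GS115-YPAH5x replicate 1 or 2. Of 19 ATP synthase genes 13 were lower, and 9 to 18 were lower over the alternatives run.

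Single genes stood apart from X33-YPA in both directions. AOX1 had 50.9 and 43.9 CPM in GS115-YPAH5x, against 371 and 429.5 CPM in X33-YPA (log2 fold change over X33-YPA -3.08, SE 0.16, adjusted p = 6.85e-06). The copper transporter gene (BQ9382_C4-4355) had 1134 and 965 CPM in GS115-YPAH5x, against 2943 and 2729 CPM in X33-YPA (log2 fold change over X33-YPA -1.43, SE 0.15, adjusted p = 0.000238). In both genes GS115-YPAH5x lay between the other groups, with no overlap. The acetate transporter gene BQ9382_C1-3830 lay between them as well, with 14.7 and 19.1 CPM in GS115-YPAH5x, against 44.9 and 55.8 CPM in X33-YPA (log2 fold change over X33-YPA -1.58, SE 0.17, adjusted p = 0.000334), beside a log2 fold change of 1.31 against GS115-YPA. Genes that fell against GS115-YPA and were still above X33-YPA were the adhesin gene BQ9382_C3-6505, with 51.6 and 43.5 CPM in GS115-YPAH5x, against 4.14 and 3.46 CPM in X33-YPA (log2 fold change over X33-YPA 3.65, SE 0.17, adjusted p = 6.85e-06), the adhesin gene BQ9382_C1-8280 (log2 fold change 5.71 against X33-YPA) and IME2 (2.62). A further group was higher than in both other groups. RME1 had 2374 and 2311 CPM in GS115-YPAH5x, against 649 and 417 CPM in X33-YPA (log2 fold change over X33-YPA 2.14, SE 0.22, adjusted p = 0.00025), SKN7 had 229 and 292 CPM in GS115-YPAH5x, against 86.6 and 90.5 CPM in X33-YPA (log2 fold change over X33-YPA 1.56, SE 0.18, adjusted p = 0.000363), and the AGP2-type permease gene BQ9382_C3-1840 had a log2 fold change of 2.10 against X33-YPA.

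**Figure D5:**
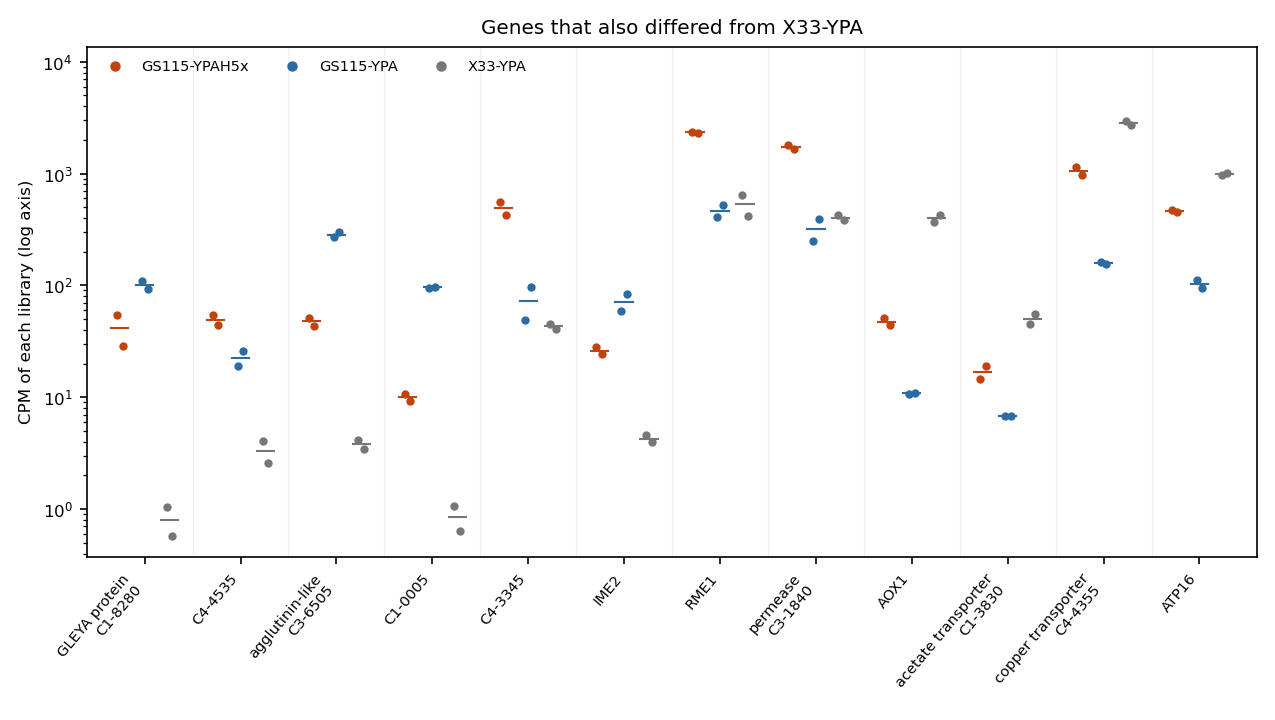
Levels in CPM (log axis) of 12 genes in the libraries of GS115-YPAH5x, GS115-YPA and X33-YPA, in that order from left to right; points are single libraries. AOX1 has 50.9 and 43.9 CPM in GS115-YPAH5x, against 10.7 and 10.9 CPM in GS115-YPA, and 371 and 429.5 CPM in X33-YPA.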

How the data were processed

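RNA sequenced as 6 libraries after rRNA depletion with a kit made for bacteria, was deposited by the authors as whole-number read counts per gene, with no normalization. Tools listed in the notes of the submitters are featureCounts 1.6.4, Bowtie2, DESeq2, fastp 0.19.6 and bcl2fastq 2.19.0.316, without their order or role, and the genome build, the strand setting and the handling of shared reads were not given in the sources used here. Reads from overlapping genes on opposite strands therefore cannot be told apart.

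Counts were fitted in R 4.3.3 with edgeR 4.0.16 (limma 3.58.1), using TMM scaling, filterByExpr, 1 mean per group, 3 residual degrees of freedom, the quasi-likelihood test and Benjamini-Hochberg adjustment over 5426 genes. All 6 libraries entered the fit, so X33-YPA added to the estimate of the spread. Fold changes are on the log2 scale with an SE. DESeq2 1.42.0, other scalings, other filters, a 4-library fit, edgeR's robust option, leaving out the 10 most abundant genes, and leaving out each library were the alternatives. The procedure was also run on simulated counts in which only a small part of the genes changed. That setting does not check it for data in which 59.8% of genes passed.

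Totals of 32194047 to 43447246 counts per library make counting error small for most genes. Duplicates differed by more than counting noise (chi-square per degree of freedom 40.9 in GS115-YPAH5x, 141 in GS115-YPA and 69.7 in X33-YPA), so the spread between libraries, with a common biological coefficient of variation of 0.132, limits the precision.

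Samples were grouped by their strain and medium labels, and 0 count columns were left unmapped. Members and gene lists were chosen with earlier results of these data known. Lists came from symbols and description patterns, with matches dropped or added by description only. Gene names are those of the deposited table (1590 rows with a symbol), since a gene table of another Komagataella assembly matched 0 locus tags and was not used.

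Genes were named by a rule: the histidine genes; the 10 highest and 10 lowest fold changes at the study's thresholds without overlap of libraries; the 10 largest rises and falls in mean CPM; per list, up to 4 called members with the largest change, up to 2 against the median and up to 3 with the smallest adjusted p; genes the study names; the 5 highest and 5 lowest against X33-YPA; and the 10 smallest adjusted p. This gave 278 genes. Another 23 were chosen after their values were seen: GCN4, FLO11, PUT3, GDH2, ARG56, LEU3, BQ9382_C1-0085, BQ9382_C1-1195, BQ9382_C1-1295, BQ9382_C1-1425, BQ9382_C1-3035, BQ9382_C1-3900, BQ9382_C1-8120, BQ9382_C1-8125, BQ9382_C2-0530, BQ9382_C2-5070, BQ9382_C2-6685, BQ9382_C2-6955, BQ9382_C3-1655, BQ9382_C3-2875, BQ9382_C3-3030, BQ9382_C3-6195 and BQ9382_C4-3510. A withheld item is not reported here.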

Additional observations from a re-analysis of the deposited data

How the results depend on the processing

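Of 301 named genes, 0 reversed a call under any of 13 alternatives to the main contrast, and 0 to 18 calls of the genes tested there were lost per alternative, 18 without GS115-YPAH5x replicate 2 and 15 without GS115-YPAH5x replicate 1. The filter of 10 CPM left 16 of the 301, all called before, untested, and leaving out the 10 most abundant genes left 3 untested. Of 3246 called genes, 2388 to 3244 were still called in the same direction. DESeq2 called 1675 higher and 1585 lower. Higher calls made up 51.4% of calls, against 42.6% under upper quartile scaling (1381 higher, 1864 lower) and 37.7% under library totals (1228 higher, 2031 lower), where the median of all genes lay at -0.13 and -0.20. Leaving out 1 library changed the number of calls over all genes, at the study's thresholds, among the named genes and among list members. In these fits the median log2 fold change of all genes lay between -0.0138 and -0.0044. In place of 289 genes at the study's thresholds, glmTreat against a log2 fold change of 1 called 740 (380 higher, 360 lower), and lowering the fold threshold to 1 on the log2 scale gave 1376 (693 higher, 683 lower). The comparison with X33-YPA was less stable: library totals gave 671 higher and 2040 lower, and leaving out 1 library gave 934 to 1537 calls, 611 to 847 higher and 323 to 690 lower. In these fits the group left with 1 library was assumed to vary like the others. With fewer libraries fewer degrees of freedom remain, and the cause of the shift with scaling was not tested. No paired analysis was possible because the labels number no replicates across groups. The spread between 2 libraries per group, more than the depth, limits which differences could be called.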

Other observations

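Some genes with consecutive locus tags had like changes, given here as values of pairs chosen after they were seen. BQ9382_C1-6465 and BQ9382_C1-6470, both described as FMN-dependent proteins, had log2 fold changes of -4.0 and -4.33 in GS115-YPAH5x against GS115-YPA. BQ9382_C4-4400, described as a deubiquitinating enzyme anchored to the mitochondrial outer membrane, had 4.81 and 5.09 CPM in GS115-YPAH5x, against 82.9 and 83.1 CPM in GS115-YPA (log2 fold change -4.07), beside -2.45 for its neighbour DUR1. An H2A gene (BQ9382_C2-4685) and the H2B gene after it (BQ9382_C2-4690), both for histones that package DNA, had log2 fold changes of 2.29 and 1.95. Since the strand setting of the counting was not given, reads of overlapping neighbours may have been counted for either gene.

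In 1 stretch GS115-YPA replicate 1 alone was high. BQ9382_C3-3415, described as a methylthioribose-1-phosphate isomerase, had 3.53 and 3.33 CPM in GS115-YPAH5x, against 84.9 and 8.64 CPM in GS115-YPA (log2 fold change -3.76, adjusted p = 0.00287), and this call was lost with edgeR's robust option (adjusted p = 0.0568; range over its alternatives 4.05e-07 to 0.0568). BQ9382_C3-3420, described as elongation factor Tu, had 283 and 302 CPM in GS115-YPAH5x, against 568 and 320.2 CPM in GS115-YPA (log2 fold change -0.60, adjusted p = 0.0445).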
